A study of Mus musculus with 8 samples.

Results

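Nuclear receptor genes were examined in cultured mouse bone marrow progenitors in which Pcgf1 had been reduced. The genes were chosen by symbol alone, as those whose mouse symbol follows the receptor nomenclature for groups Nr0 to Nr6 with a letter from a to f, or names a retinoic acid, retinoid X, PPAR, thyroid hormone, oestrogen, oestrogen-related, ROR or vitamin D receptor. The rule found 40 of the 17016 named genes on the array, and no measured value entered it. The rule and the gene lists used below were however chosen with earlier results of these data known. Of the 40, 39 encode receptors. The other, Nr2c2ap, shares the symbol of the receptor gene Nr2c2 but encodes a protein that associates with that receptor, and it is left out of the counts of receptors. The letters of the rule do not reach the LXR, FXR, PXR and CAR genes (Nr1h and Nr1i), and the Hnf4 and progesterone receptors carry other symbols, so these were followed as a separate list.

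Both groups were cultures of haematopoietic stem and progenitor cells (HSPCs) from 4 mice of the genotype Runx1 Δ/Δ, of mixed C57Bl/6 and 129SvJ strain. The cells were lineage-depleted marrow of femur and tibia, grown for 2 days with SCF, Flt3 ligand, IL-11 and IL-3. Each mouse gave 1 culture transduced with a retroviral (pRS) control shRNA and 1 with an shRNA against Pcgf1, a subunit of the Polycomb complex PRC1.1, and puromycin selection for 36 h preceded RNA extraction. By their label both groups carry the Runx1 deletion, Runx1 being the DNA-binding subunit of a blood transcription factor, and the 8 one-colour arrays (4 per group) ask which transcripts differ when Pcgf1 is reduced on that background. The age and sex of the mice and how Runx1 was deleted are not given in the sources used here.

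Nuclear receptors are transcription factors that carry a zinc-finger DNA-binding domain and a ligand-binding domain, through which steroids, thyroid hormone, retinoids, vitamin D, fatty acids, oxysterols or haem change the genes they control. Without ligand many of them recruit corepressors, and with ligand they recruit coactivators. Many bind DNA together with a retinoid X receptor, whereas steroid receptors pair with themselves and several orphan members act alone. In marrow, retinoic acid receptors are known for granulocyte differentiation, PPARG and LXRs for lipid handling in macrophages, the glucocorticoid receptor for stress erythropoiesis, and the NR4A members for restraint of stem cell cycling and of myeloid leukaemia.

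On each array 54.8% to 62.0% of the 43379 spots were well above background, and 0 were saturated. Signals are given as log2 values relative to the 75th percentile of the array, so that 0 is the 75th percentile and the lowest signals called above background lie between −5.94 and −5.22. A level is comparable between arrays for 1 probe, not between genes. Pcgf1 itself stood at −0.23 ± 0.18 (SD, n = 4) with the control shRNA and at −1.59 ± 0.17 (n = 4) with the Pcgf1 shRNA, in limma a log2 change of −1.36 (SE 0.12, adjusted p 0.0197), and its groups did not overlap. The call was lost without mouse 2 (adjusted p 0.352, with the block 0.0896), and without mouse 1 (0.113) or mouse 3 (0.0904) in the fit without a block. It was also lost without the control (0.0935) or Pcgf1 shRNA array (0.0924) of mouse 2, or the Pcgf1 shRNA array of mouse 3 (0.0676). The array's Runx1 probe was well above background on all 8 arrays, at 0.70 ± 0.22 and 0.97 ± 0.18 (n = 4 each). The labels do not place this probe relative to the deletion, so its signal checks nothing about the genotype. Of 13 stem and progenitor markers on the array 12, among them Kit and Cd34, were above background on all 8 arrays, beside markers of maturing neutrophils, monocytes and erythroid cells. Both arrays of a mouse shared deviations from the group means (r across genes 0.44, 0.48, 0.41 and 0.64 in mice 1 to 4), and mice 1 and 2 shared a slide, as did mice 3 and 4. The 8 cultures came from 4 mice, each giving 1 culture to each group. Without a block the p-values measure the spread of cultures within the groups, as if they were not paired. With mouse as a block they measure the spread of the within-mouse differences. In both fits 4 mice are the limit to precision. In these cultures of mixed cells, fewer cells of a type and less RNA per cell cannot be told apart.

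Of the 39 receptor genes 24 were measured, where measured means that the control or the Pcgf1 shRNA group had signal well above background in 4 of 4 cultures. Pparg, Nr4a2 and Nr1d1 were lower and Nr2f6 was higher with the Pcgf1 shRNA in 4 of 4 mice. Without a block limma called 0 of the 24 at an adjusted p of 0.05, where 0.763% of all 17299 genes tested were called, and the smallest adjusted p of a receptor was 0.0726 (Pparg). Here and below, all genes include transcripts without a matched gene name, each counted as a gene. Of the 17302 genes kept 11744 had a name, as all 24 receptors do. With mouse as a block, which compares the cultures of the same animal, limma called 4 of 24 (16.7%), against 5.32% of all genes. The higher call was Nr2f6 (2.91% of all genes were called higher), and the 3 lower ones were Pparg, Nr4a2 and Nr1d1 (2.42% lower). At an unadjusted p under 0.05, 7 receptors passed without a block (29.2%, against 12.2% of all genes) and 10 with it (41.7%, against 23.5%).

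The block calls of the 4 receptors rested on all 4 mice. Without both arrays of mouse 1, 2 or 4 the block fit called 0 receptors, and without mouse 3 it called 1, Pparg (adjusted p 0.0395). Without a block, leaving out mouse 4 brought Nr2f6 (0.0368), Pparg (0.0368) and Nr4a2 (0.0289) under the threshold. Leaving out the control array of mouse 4 alone brought Pparg there (0.0376), and leaving out its Pcgf1 shRNA array brought Nr2f6 (0.0372) and Nr4a2 (0.0246). Each other mouse or single array left out gave 0 calls without a block. Array weights gave 4 calls without a block, Nr2f6, Pparg, Nr4a2 and Rora.

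**Figure D1:**
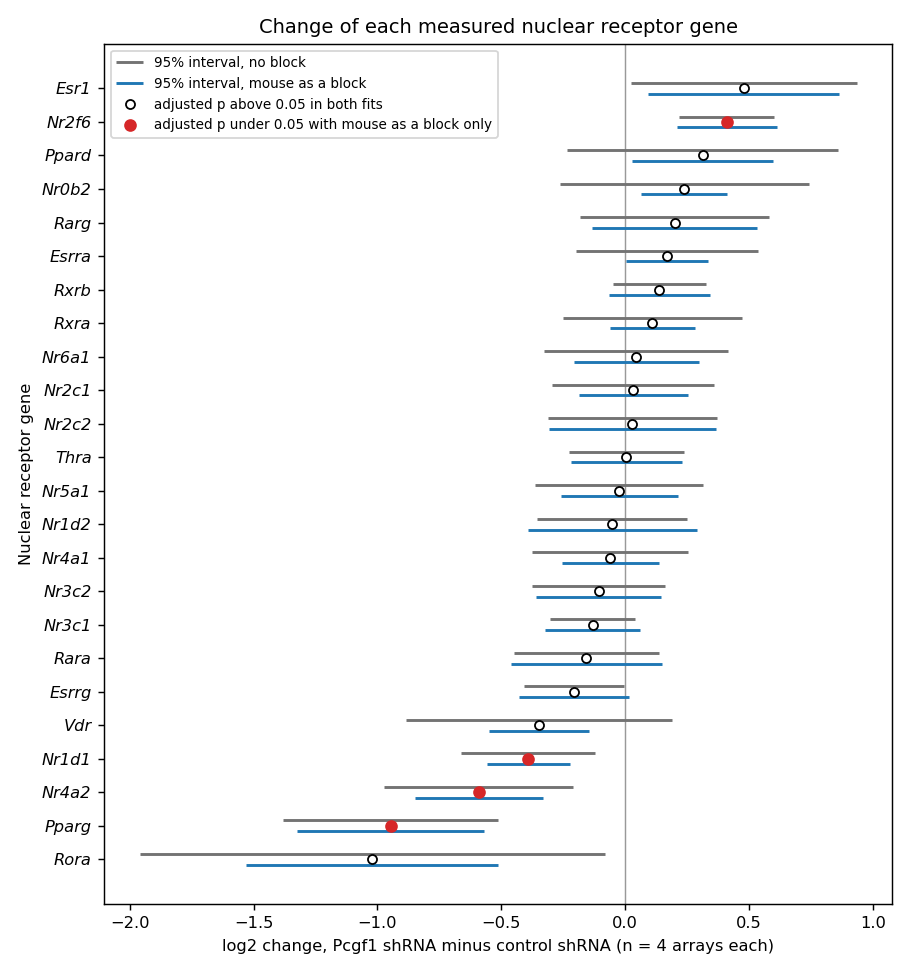
Log2 change of the 24 measured nuclear receptor genes, Pcgf1 shRNA minus control shRNA (x axis), with 95% intervals from limma without a block (grey) and with mouse as a block (blue), n = 4 arrays per group. The 4 filled red points, Nr2f6 above 0 and Pparg, Nr4a2 and Nr1d1 below it, passed an adjusted p of 0.05 with the block and none passed without it. Rora has the lowest point and the widest interval without the block.

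As a family the receptors showed no common direction. With the Pcgf1 shRNA 12 of the 24 were above and 12 below their control mean, with a median log2 change of −0.01 (all genes 0.00) and a median size of 0.163 (all genes 0.124). In 16 of 24 the difference was smaller than 0.25 in size. Only Rora (−1.02), Pparg (−0.95) and Nr4a2 (−0.59) differed by more than 0.5 (12.5%, against 8.5% of all genes). The sign was the same in 4 of 4 mice for 11 receptors, 4 higher and 7 lower (45.8%, against 31.8% of all genes), and the groups did not overlap for 3, Nr2f6, Pparg and Nr4a2 (12.5%, against 7.16%).

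The range of the 4 mouse means exceeded the size of the change for 18 of 24 receptors (75%, against 86.3% of all genes), and its median was 0.426 (0.344 over all genes). Mouse 4 had the lowest mean for 16 of the 24, whereas it had the lowest mean for 44.7% of all genes. The median within-mouse change of the receptors was −0.04, 0.09, −0.12 and −0.08 in mice 1 to 4.

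**Figure D2:**
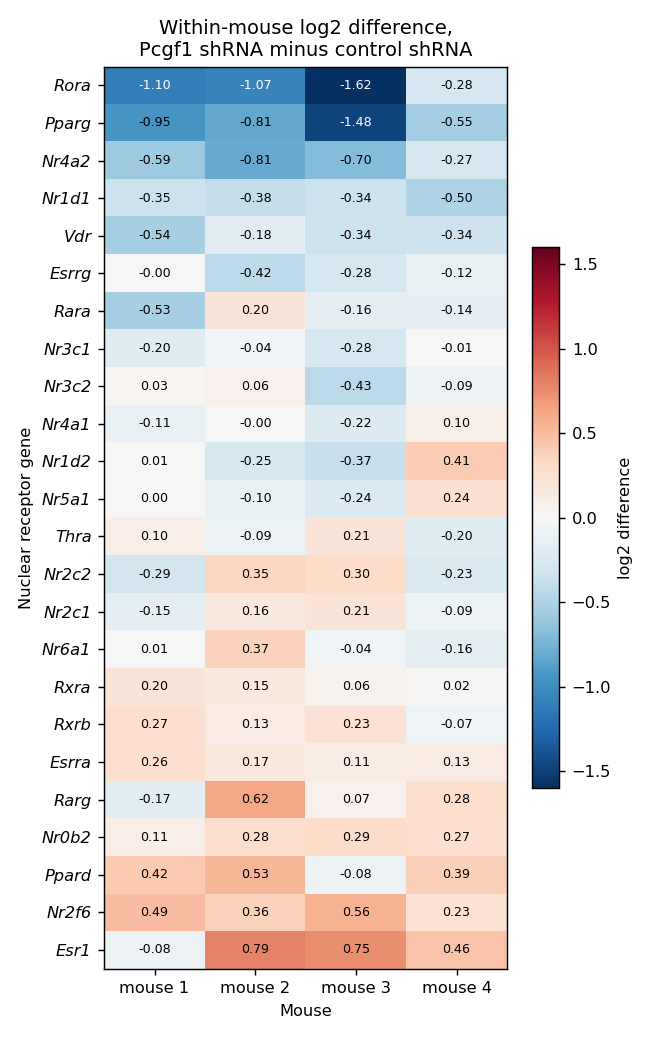
Within-mouse log2 difference of each measured receptor gene (rows, ordered by mean) in mice 1 to 4 (columns), Pcgf1 shRNA minus control shRNA, with red for higher and blue for lower values. Rora, Pparg, Nr4a2, Nr1d1, Vdr, Esrrg and Nr3c1 are lower in all 4 columns. Nr2f6, Nr0b2, Esrra and Rxra are higher in all 4, while Nr1d2, Nr2c2 and Rarg change sign between mice. Close to 0 are Esrrg in mouse 1 (−0.004) and, in mouse 4, Nr3c1 (−0.01) and Rxra (0.02).

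PRC1.1 is known to bind CpG-rich promoters through its KDM2B subunit, so the CpG content in the 250 bases before the start is given for the receptors. RefSeq promoters (GRCm38.p6) were matched for 35 of the 39 receptor genes and gave 54 starts. A median of 12 CpG dinucleotides lay in this window, against 6 in the 32851 RefSeq promoters given, and 32 of 54 (59.3%) held at least 10, against 37.8%. The 34 starts of measured receptors had a median of 13.5, and the 14 starts of the 11 receptors above background on 0 arrays a median of 11.5. The 4 receptors called with the block ranged widely. Nr4a2 held 44 CpGs, Nr2f6 42 and Nr1d1 7, while the 3 starts of Pparg held 38, 12 and 2. The windows of these 4 genes follow, with the strand of the gene, 5′ to 3′, and each CpG in capitals.
Nr4a2 (chr2:57124004-57124253, − strand): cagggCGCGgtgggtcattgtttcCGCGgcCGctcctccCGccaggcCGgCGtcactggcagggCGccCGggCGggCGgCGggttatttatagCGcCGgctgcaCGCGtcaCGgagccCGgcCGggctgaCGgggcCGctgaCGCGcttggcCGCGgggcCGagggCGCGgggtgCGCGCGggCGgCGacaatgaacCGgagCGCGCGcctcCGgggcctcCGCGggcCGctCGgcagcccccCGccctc
Nr2f6 (chr8:71381953-71382202, − strand): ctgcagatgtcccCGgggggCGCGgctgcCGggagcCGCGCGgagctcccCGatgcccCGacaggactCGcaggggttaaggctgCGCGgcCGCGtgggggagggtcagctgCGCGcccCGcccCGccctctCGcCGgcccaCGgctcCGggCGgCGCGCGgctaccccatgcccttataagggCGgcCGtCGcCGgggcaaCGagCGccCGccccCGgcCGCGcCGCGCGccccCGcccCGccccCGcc
Nr1d1 (chr11:98775378-98775627, − strand): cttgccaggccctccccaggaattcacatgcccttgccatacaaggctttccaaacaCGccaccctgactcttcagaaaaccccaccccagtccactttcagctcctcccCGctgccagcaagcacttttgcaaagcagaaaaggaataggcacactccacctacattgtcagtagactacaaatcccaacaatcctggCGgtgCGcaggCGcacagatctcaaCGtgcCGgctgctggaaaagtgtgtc
Pparg first start (chr6:115360894-115361143, + strand): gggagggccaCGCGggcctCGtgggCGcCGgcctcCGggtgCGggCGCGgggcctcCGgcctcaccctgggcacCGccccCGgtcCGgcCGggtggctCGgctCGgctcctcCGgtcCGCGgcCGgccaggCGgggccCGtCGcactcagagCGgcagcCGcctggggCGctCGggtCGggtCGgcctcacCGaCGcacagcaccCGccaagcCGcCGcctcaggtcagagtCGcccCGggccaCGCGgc
Pparg last start (chr6:115421816-115422065, + strand): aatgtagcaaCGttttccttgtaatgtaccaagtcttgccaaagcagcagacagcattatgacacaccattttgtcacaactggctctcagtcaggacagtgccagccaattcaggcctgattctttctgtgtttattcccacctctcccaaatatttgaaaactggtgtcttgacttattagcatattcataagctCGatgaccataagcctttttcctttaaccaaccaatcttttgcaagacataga

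Nr4a2 and Nr2f6 carry CpG-dense windows and changed in opposite directions with the block, while Nr1d1, with few CpGs, was lower like Nr4a2. Pparg, whose starts range from many CpGs to few, was lower too. Whether CpG content goes with the change was not tested. The hexamer AGGTCA, the core element bound by many nuclear receptors, occurred on either strand in 10 of 54 receptor windows (18.5%), against 14.0% of the RefSeq promoters used. At Pparg it lay 28 to 23 bases before the first start, inside the first Pparg window shown, and 9 to 4 bases before the second start. The cyclic AMP response element TGACGTCA, for which NR4A promoters are known, was found in 1 window (1.85%, against 1.55%), that of Nr2e1. The E-box CACGTG, which clock factors bind, was found in 4 (7.41%, against 6.02%), those of Esr2, Nr0b2, Rara and Thrb. Both strands were searched, and none of the 3 strings contains another. A match is a string in this window and no evidence of binding.

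Among the lipid sensors Pparg, which encodes the fatty acid receptor of adipocytes and of some macrophages (chromosome 6, 115360879 to 115490404, GRCm38.p6), was lower with the Pcgf1 shRNA. Its log2 signal was 1.45, 1.29, 1.92 and 0.91 in the control cultures of mice 1 to 4 and 0.50, 0.48, 0.44 and 0.36 in the Pcgf1 shRNA cultures. Every Pcgf1 shRNA array was below every control array, and the control arrays spread widely while the Pcgf1 shRNA arrays lay close together. The means were 1.39 ± 0.42 and 0.44 ± 0.06 (SD, n = 4), 1.93-fold lower (log2 change −0.95, SE 0.19, adjusted p 0.0726 without a block and 0.0323 with it). Slide by slide it came to −0.88 for mice 1 and 2 and −1.01 for mice 3 and 4, and it was smallest in size in mouse 4 (−0.55). Ppard, the widely expressed PPAR, read −4.45, −4.63, −4.28 and −5.21 with the control shRNA and −4.03, −4.10, −4.36 and −4.83 with the Pcgf1 shRNA. It was close to background, with 3 of 4 control arrays above it, and the groups overlapped (log2 change 0.31, SE 0.24, adjusted p 0.657 without a block and 0.178 with it). With normexp background correction its difference was −0.10. Ppara, the PPAR of hepatic fatty acid oxidation, was above background on 0 of 8 arrays.

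Of 23 PPAR target genes on the array 20 were measured, and 17 were below their control mean (85.0%, against 49.5% of all genes; median log2 change −0.10). None passed without a block (3 of 20 at an unadjusted p under 0.05, against 12.2% of all genes), and 3 of 20 fell with it (15% of the list, against 2.42% of all genes called lower), each lower in 4 of 4 mice. Plin2, which coats lipid droplets, read 6.20, 6.04, 6.28 and 5.81 in the controls and 5.66, 5.15, 5.19 and 5.07 with the Pcgf1 shRNA, without overlap (log2 change −0.82, SE 0.16, adjusted p 0.0638 without a block and 0.0208 with it). The fatty acid transporter gene Cd36 (−1.03, block 0.0330) was above background on 4 control arrays but on 2 with the Pcgf1 shRNA, and it was at −0.30 with normexp background correction. Cd36 thus passed the filter through the control group alone, which favours a lower value, so its direction is no support for the counts. Of the 20 measured targets 19 were above background on all 8 arrays. The peroxisomal enzyme gene Ehhadh fell by 0.60 on the log2 scale (block 0.0471), but its value was −0.30 with normexp, −0.29 without the control array of mouse 4, −0.34 without the Pcgf1 shRNA array of mouse 3 and −1.02 without that of mouse 4. Fabp4, a fatty acid carrier of adipocytes and macrophages, was at −1.77 without passing (0.0525). After these 4 and the lipase gene Lpl (−0.85, block 0.0829), the other 15 measured targets, most of them enzymes of fatty acid oxidation, lay between −0.24 (Acadvl) and 0.06 (Hadhb); Lpl, Acadvl and Hadhb were chosen after their values were seen.

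The LXR genes lie outside the symbol rule. Nr1h3, the LXR of macrophages and liver, read 0.00, −0.05, −0.29 and −1.14 with the control shRNA and −0.06, −0.55, −0.90 and −1.49 with the Pcgf1 shRNA, lower in 4 of 4 mice with overlapping groups (log2 change −0.38, SE 0.35, adjusted p 0.715 without a block and 0.0997 with it), and Nr1h2, its ubiquitous paralogue, was at −0.08. Of 13 measured LXR targets 11 were below their control mean (84.6%, against 49.5%), with a median of −0.24. None passed in limma with or without a block, and 4 had an unadjusted p under 0.05 without it (12.2% of all genes did). The cholesterol exporter genes Abca1 (−1.75, SE 0.56, adjusted p 0.253, block 0.149) and Abcg1 (−1.04, SE 0.25, adjusted p 0.127, block 0.0683) were lower in 4 of 4 mice without overlap, but Abca1 was above background on only 2 arrays with the Pcgf1 shRNA and was at −0.38 with normexp. Abca1 thus passed the filter through the control group alone, which favours a lower value. Of the 13 LXR targets measured 11 were above background on all 8 arrays. Monocyte and macrophage markers, which include no PPAR or LXR target of these lists, were below their control mean too in 14 of 15 (49.5% of all genes were), with a median of −0.52 and 5 called lower with the block (33.3%, against 2.42% of all genes; among them Lyz1, Ccr2, Klf4 and Irf8). Their summed level, in multiples of the 75th percentile signal, was 415 to 696 in the control and 339 to 556 in the Pcgf1 shRNA cultures. All 15 on the array were measured, 14 of them above background on all 8 arrays. Their part in the values of Pparg, Nr1h3 and these targets was not tested.

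**Figure D3:**
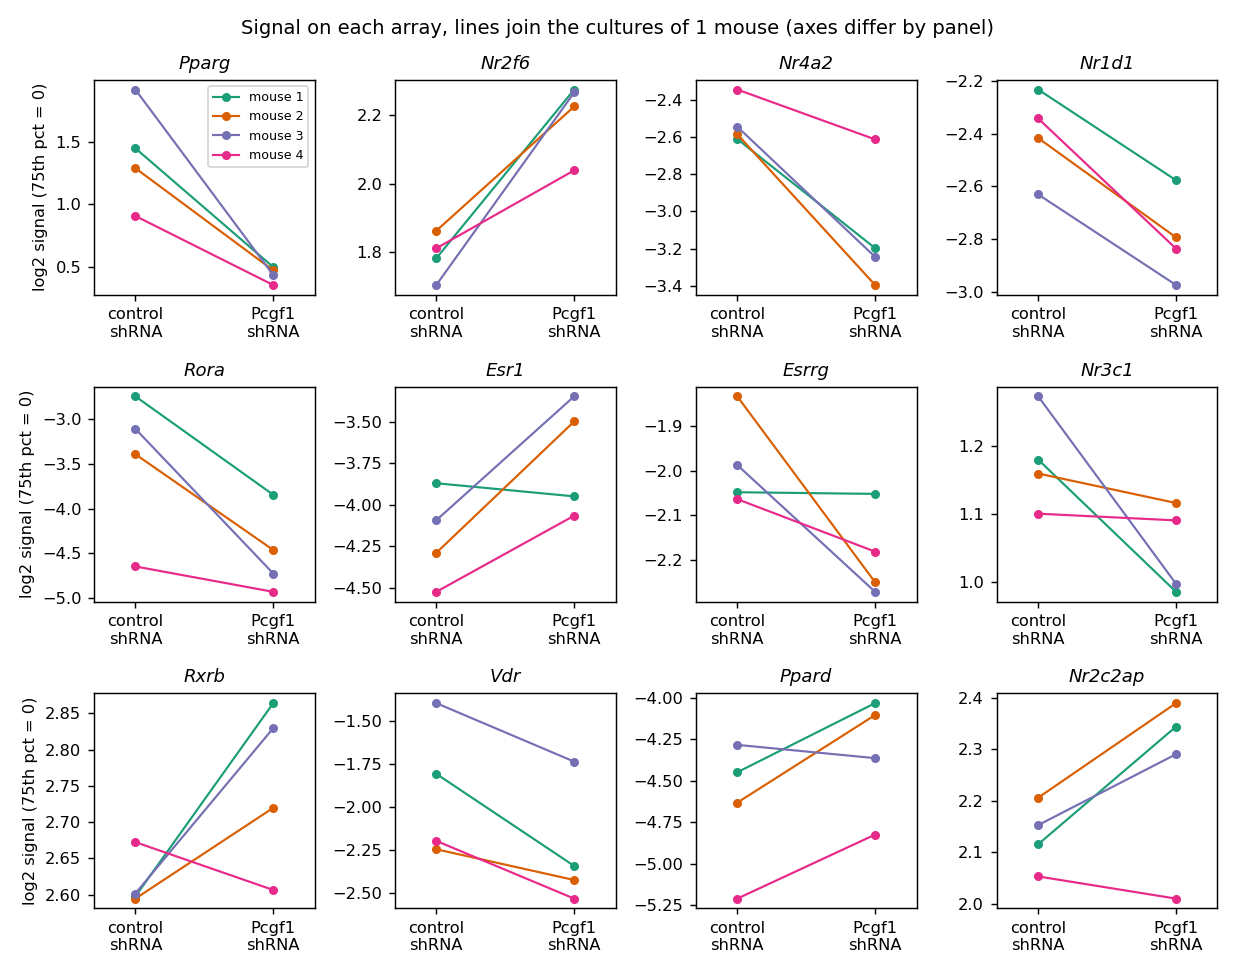
Log2 signal (75th percentile of the array = 0) of the 12 measured members with the smallest unadjusted p, on the control shRNA and the Pcgf1 shRNA array of each mouse (1 colour and line per mouse, y axes differ by panel). All 4 lines slope down for Pparg, Nr4a2, Nr1d1, Rora and Vdr and all 4 slope up for Nr2f6. They also slope down for Esrrg and Nr3c1, where the line of mouse 1 (Esrrg) or mouse 4 (Nr3c1) is nearly level. Mouse 1 departs from the others for Esr1, mouse 3 for Ppard, and mouse 4 for Rxrb and Nr2c2ap.

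REV-ERB and ROR receptors compete for the same DNA element in the circadian clock, the former as haem-binding repressors and the latter as activators. Nr1d1, which encodes REV-ERB alpha (chromosome 11, 98767932 to 98775377), read −2.23, −2.42, −2.63 and −2.34 with the control shRNA and −2.58, −2.79, −2.98 and −2.84 with the Pcgf1 shRNA. The groups overlapped, as mice differed in level, yet within each mouse the Pcgf1 shRNA array was lower, by nearly the same amount (−0.35, −0.38, −0.34 and −0.50). The means were −2.41 ± 0.17 and −2.80 ± 0.17 (SD, n = 4), 1.31-fold lower (log2 change −0.39, SE 0.12, adjusted p 0.232 without a block and 0.0363 with it). Its 3 probes gave −0.39, −0.31 and −0.13, and in a fit with 1 row per probe, an alternative chosen after seeing the data, only the brightest passed with the block (0.0376). Nr1d2, which encodes REV-ERB beta, was at −0.05 and was lower in 2 mice and higher in 2.

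Rora, an activator of the same elements (chromosome 9, 68653404 to 69388246), had the change of largest size among the measured receptors with the values as used here, and the largest error. It read −2.74, −3.39, −3.11 and −4.65 in the controls and −3.85, −4.46, −4.73 and −4.93 with the Pcgf1 shRNA. Mouse 4 was low in both cultures and overlapped the Pcgf1 shRNA arrays of the other mice, and the within-mouse differences were −1.10, −1.07, −1.62 and −0.28. The mean was 2.03-fold lower (log2 change −1.02, SE 0.41, adjusted p 0.370 without a block and 0.0507 with it), with a 95% interval of −1.96 to −0.08 without a block. Its 2 probes gave −1.02 and −0.87, and the brighter one had a block p of 0.0494 in the fit by probe, so its call turned on the unit of the fit. With 1 array left out in turn the Rora change ranged from −1.41 (without the control array of mouse 4) to −0.78 (without that of mouse 1). With normexp it was −0.58, smaller in size than the −0.88 of Pparg, as it also was without the control array of mouse 1 (Pparg −0.93). Rorb was above background on 0 arrays.

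Of 17 clock genes on the array 16 were measured and 0 passed in limma in either fit. Without a block 3 had an unadjusted p under 0.05 (12.2% of all genes did). Below their control mean were 9 (49.5% of all genes were), and the median was −0.10. Dbp, an output gene of the clock, was lower in 4 of 4 mice (−0.38, SE 0.12, adjusted p 0.260, block 0.0671), as was the period kinase gene Csnk1d (−0.22, adjusted p 0.269, block 0.152). Arntl, which encodes BMAL1 and is the classical REV-ERB target, was at 0.09 (block 0.549; chosen after its value was seen).

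Nr1d1 shares its locus with other receptors. On chromosome 11 Thra and Nr1d1 overlap by 1075 bases at their 3′ ends, and Rara starts 152.4 kb beyond Nr1d1. The log2 change was −0.39 for Nr1d1, 0.01 for Thra and −0.16 for Rara, and only Nr1d1 was called with the block; differences between the 3 genes were not tested. The corresponding cluster of the paralogues on chromosome 14 holds Rarb, Thrb and Nr1d2, with gaps of 576.9 kb and 164 kb, of which only Nr1d2 was measured. Nr5a1 and Nr6a1, 8.83 kb apart on chromosome 2, were at −0.02 and 0.05, and Nr4a1 and Rarg, 960.1 kb apart on chromosome 15, at −0.06 and 0.20.

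The NR4A genes encode orphan receptors that are induced within minutes to hours of stimulation and need no known ligand. Nr4a2, which encodes NURR1 (chromosome 2, 57106830 to 57124003), read −2.61, −2.59, −2.54 and −2.35 with the control shRNA and −3.20, −3.39, −3.24 and −2.61 with the Pcgf1 shRNA. All control arrays lay above all Pcgf1 shRNA arrays, by a narrow margin, with the Pcgf1 shRNA culture of mouse 4 nearly at the lowest control. The means were −2.52 ± 0.12 and −3.11 ± 0.34 (SD, n = 4), 1.51-fold lower (log2 change −0.59, SE 0.17, adjusted p 0.193 without a block and 0.0375 with it), at −0.70 for the mice of the first slide and −0.48 for those of the second. Nr4a1, which encodes NUR77, read 1.42 to 2.00 over the 8 arrays and differed by −0.06 (95% interval −0.37 to 0.25, adjusted p 0.908, block 0.705). Nr4a3 was above background on 0 arrays. Whether Nr4a2 differed from Nr4a1 in its change was not tested.

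Immediate early genes that are induced beside NR4A genes gave a mixed picture, with 15 of 16 measured and a median of −0.06. Below their control mean were 9 (49.5% of all genes were). Fosl1, a FOS family member, rose with the block and was higher in 4 of 4 mice without overlap, reading −1.47, −1.70, −1.51 and −1.71 with the control shRNA and −0.99, −1.17, −1.03 and −1.20 with the Pcgf1 shRNA (log2 change 0.50, SE 0.09, adjusted p 0.0571 without a block and 0.0208 with it). Jun was lower in 4 of 4 mice (−0.44, adjusted p 0.339, block 0.0671) without passing.

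Nr2f6, which encodes EAR2, an orphan of the COUP-TF group known to hold back blood cell differentiation (chromosome 8, 71374118 to 71381967), was the receptor that rose with the block. Its log2 signal was 1.78, 1.86, 1.70 and 1.81 in the controls and 2.27, 2.22, 2.27 and 2.04 with the Pcgf1 shRNA. The groups did not overlap, and 3 of the 4 Pcgf1 shRNA arrays agreed closely while that of mouse 4 was lower. The means were 1.79 ± 0.07 and 2.20 ± 0.11 (SD, n = 4), 1.33-fold higher (log2 change 0.41, SE 0.08, adjusted p 0.0771 without a block and 0.0499 with it), at 0.43 and 0.39 for the mice of the first and second slide. With quantile normalization in place of the 75th percentile it passed without a block (0.41, adjusted p 0.0400). The block p lay just under the threshold.

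Its close relatives were not measured. Nr2f2 was above background on 0 arrays. Nr2f1 was above background on 0 control arrays and on 2 Pcgf1 shRNA arrays, those of mice 1 and 4, at −2.83 and −3.34, while the other 6 arrays lay between −7.93 and −7.26. The 2 bright arrays lie on different slides, and the other 2 mice showed no such signal. Of the other NR2 members, Nr2c1 and Nr2c2, testicular orphan receptors, differed by 0.03 (95% interval −0.30 to 0.36) and 0.03 (−0.31 to 0.37). Nr2c2ap read 2.12, 2.21, 2.15 and 2.05 with the control shRNA and 2.34, 2.39, 2.29 and 2.01 with the Pcgf1 shRNA, higher in 3 of 4 mice with overlapping groups (log2 change 0.13, SE 0.10, adjusted p 0.668 without a block and 0.379 with it). Nr2e1 and Nr2e3, receptors of brain and retina, were above background on 0 arrays.

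No steroid or oestrogen-related receptor passed in either fit. Esr1, the oestrogen receptor alpha gene, read −3.87, −4.29, −4.09 and −4.52 with the control shRNA and −3.95, −3.50, −3.35 and −4.06 with the Pcgf1 shRNA. It was higher in mice 2, 3 and 4 and slightly lower in mouse 1, and the groups overlapped (log2 change 0.48, SE 0.20, adjusted p 0.386 without a block and 0.141 with it). With normexp the Esr1 difference was 0.096. A second probe of Esr1 was above background on 1 array. Esr2 was above background on 0 arrays. Esrrg, an oestrogen-related receptor of oxidative tissues, read −2.05, −1.83, −1.99 and −2.06 with the control shRNA and −2.05, −2.25, −2.27 and −2.18 with the Pcgf1 shRNA, lower in 4 of 4 mice but level in mouse 1 to 2 decimals, with overlap (log2 change −0.21, SE 0.09, adjusted p 0.401 without a block and 0.244 with it). Esrra, which drives mitochondrial genes with PGC-1 coactivators, was higher in 4 of 4 mice by a small amount (0.26, 0.17, 0.11 and 0.13; log2 change 0.17, SE 0.16, adjusted p 0.725 without a block and 0.206 with it). Esrrb was above background on 0 arrays.

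The glucocorticoid receptor gene Nr3c1 read 1.18, 1.16, 1.27 and 1.10 with the control shRNA and 0.99, 1.12, 1.00 and 1.09 with the Pcgf1 shRNA on its brightest probe. The values were lower in 4 of 4 mice, by least in mice 4 and 2, and the groups overlapped (log2 change −0.13, SE 0.08, adjusted p 0.546 without a block and 0.370 with it). Its other 3 probes gave −0.22, −0.04 and 1.07, and the last came from a single array, the Pcgf1 shRNA array of mouse 3 at 0.35, where the other Pcgf1 shRNA arrays of that probe read −4.29 to −3.78. The mean over the probes was therefore 0.17, against −0.13 for the brightest. The mineralocorticoid receptor gene Nr3c2 differed by −0.11 (−0.37 to 0.16).

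Of 15 measured glucocorticoid targets 9 were below their control mean (49.5% of all genes were), with a median of −0.20. In limma 0 passed without a block, where 3 had an unadjusted p under 0.05 (12.2% of all genes did). With the block 1 fell, Anxa1, which encodes an anti-inflammatory annexin (log2 change −0.55, SE 0.17, adjusted p 0.231 without a block and 0.0499 with it). Other targets lay on both sides of 0. Fkbp5, an inhibitory cochaperone of the receptor, was higher in 4 of 4 mice (0.49, adjusted p 0.228, block 0.0731), and Sgk1, a kinase gene, was at −1.02 (adjusted p 0.373, block 0.112; chosen after its value was seen). All 12 chaperone genes that fold steroid receptors were measured and 0 passed in limma (1 at an unadjusted p under 0.05; median 0.06). After Fkbp5, Fkbp4 had the smallest p at 0.20. Of 14 measured ERR partners and mitochondrial targets 0 passed (2 at an unadjusted p under 0.05; median 0.00), with Cycs, the cytochrome c gene, at −0.36 (block 0.0554) and Cs, the citrate synthase gene, at −0.26 (block 0.0938).

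The retinoid X receptors, the common partners of the group, were measured for Rxra and Rxrb. Rxrb read 2.60, 2.59, 2.60 and 2.67 with the control shRNA and 2.86, 2.72, 2.83 and 2.61 with the Pcgf1 shRNA. It was higher in mice 1 to 3 and lower in mouse 4, with overlap (log2 change 0.14, SE 0.08, adjusted p 0.558 without a block and 0.374 with it), and its second probe gave 0.11. Rxra was higher in 4 of 4 mice by at most 0.20 on its brightest probe (log2 change 0.11, 95% interval −0.25 to 0.47, block p 0.404) and by 0.25 on the other. Rxrg was above background on 1 Pcgf1 shRNA array.

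Among their partners Vdr, the vitamin D receptor gene, read −1.81, −2.25, −1.40 and −2.20 with the control shRNA and −2.34, −2.42, −1.74 and −2.53 with the Pcgf1 shRNA. It was lower in 4 of 4 mice by 0.54, 0.18, 0.34 and 0.34, but mice differed by more than the change and the groups overlapped (log2 change −0.35, SE 0.23, adjusted p 0.611 without a block and 0.0706 with it). The Vdr value was −0.18 without the control array of mouse 3 and −0.52 without its Pcgf1 shRNA array. Rara, the main retinoic acid receptor of granulocytes, was dim, ranging from −4.98 to −4.44, and differed by −0.16 (95% interval −0.45 to 0.14), and Rarg by 0.20 (−0.18 to 0.58), or 0.071 with normexp. Rarb was above background on 0 arrays. Thra, a thyroid hormone receptor gene, differed by 0.01 (−0.23 to 0.24), and Thrb was above background on 0 arrays with the probe that stands for it and on 1 control array with another.

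Genes around these receptors showed single calls. Of 8 measured genes of retinoid uptake, synthesis and breakdown 1 fell with the block, Aldh1a1, a retinal dehydrogenase that marks progenitors. It read 1.26, 1.80, 1.05 and 2.82 in the controls and 0.56, 0.61, −0.29 and 2.15 with the Pcgf1 shRNA, and was lower in 4 of 4 mice despite overlapping groups (log2 change −0.98, SE 0.55, adjusted p 0.536 without a block and 0.0243 with it). Single arrays moved the Aldh1a1 value to −0.62 (without the control array of mouse 4), −0.63 (without the Pcgf1 shRNA array of mouse 3) or −1.44 (without that of mouse 4), and the block call was kept only without mouse 3 (0.0446) among the 4 mice left out. Ttpal (−0.28, block 0.0679) and Dhrs3 (−0.34, block 0.112) did not pass, and the list median was −0.18. Of 8 measured retinoic acid targets 0 passed in limma, and 3 had an unadjusted p under 0.05 without a block (12.2% of all genes did). Below their control mean were 6 (49.5% of all genes were), and the median was −0.28. The transglutaminase gene Tgm2 (−1.21, adjusted p 0.184, block 0.0711) and Tnfaip2 (−0.36, adjusted p 0.229, block 0.0587) were lower in 4 of 4 mice without overlap.

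Of 7 measured thyroid hormone genes Dio2, the enzyme that activates the hormone, rose with the block and was higher in 4 of 4 mice (log2 change 0.53, SE 0.26, adjusted p 0.476 without a block and 0.0285 with it). Single arrays left out moved the Dio2 value between 0.34 and 0.75. The list median was −0.05. Of 5 measured vitamin D genes Camp, the cathelicidin gene, fell with the block (log2 change −1.80, SE 0.39, adjusted p 0.0905 without a block and 0.0266 with it) and was at −0.91 with normexp, and Cyp27b1, which activates vitamin D, was at −0.26 (block 0.227); the median was −0.26. Camp is also a marker of maturing neutrophils, a list with 11 of 14 measured genes lower (49.5% of all genes were) and a median of −1.78. The part of those cells in the Camp value was not tested.

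None of the remaining orphans passed. Nr0b2, which encodes SHP, a receptor without a DNA-binding domain that represses its partners, was higher in 4 of 4 mice, by 0.11, 0.28, 0.29 and 0.27, with overlapping groups, mouse 4 being low in both cultures (log2 change 0.24, SE 0.22, adjusted p 0.719 without a block and 0.114 with it). With normexp the Nr0b2 difference was 0.024. Nr5a1, the steroidogenic factor gene, differed by −0.02 (95% interval −0.36 to 0.32) and Nr6a1, the germ cell nuclear factor gene, by 0.05 (−0.33 to 0.42). Nr0b1 was above background on 0 arrays and Nr5a2 on 1 control array.

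None of the measured co-regulators through which the receptors act passed the test. Of 20 coactivator genes on the array 19 were measured and 0 passed in limma in either fit (1 at an unadjusted p under 0.05; median 0.02, 12 higher and 7 lower), with the acetyltransferase genes Kat2a (0.19) and Kat2b (0.22) having the smallest p. Ppargc1a, which encodes PGC-1 alpha, was above background on 0 arrays. Of 13 measured corepressors 0 passed (1 at an unadjusted p under 0.05; median 0.01). Lcorl, a relative of the ligand-dependent corepressor, was higher in 4 of 4 mice (0.37, SE 0.11, adjusted p 0.216, block 0.0675) on its brightest probe and at 0.10 as the mean of its probes, and Hdac3, the deacetylase of the NCOR complex, was at −0.11. Of 10 receptors outside the rule 4 were measured and 0 passed (0 also at an unadjusted p under 0.05 without a block), with Hnf4g at 0.24 and Nr1h3 at −0.38; Nr1h4, Nr1i2, Nr1i3 and Pgr were among those above background on 0 arrays. Over all 156 measured genes of the 14 lists 0 passed in limma without a block and 8 with it, 2 higher and 6 lower. The 8 are 5.13%, near the 5.32% of all genes. At an unadjusted p under 0.05 there were 25 of 156 without a block (12.2% of all genes) and 52 of 156 with it (23.5%). With the block and both arrays of 1 mouse left out, at most 3 passed.

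**Figure D4:**
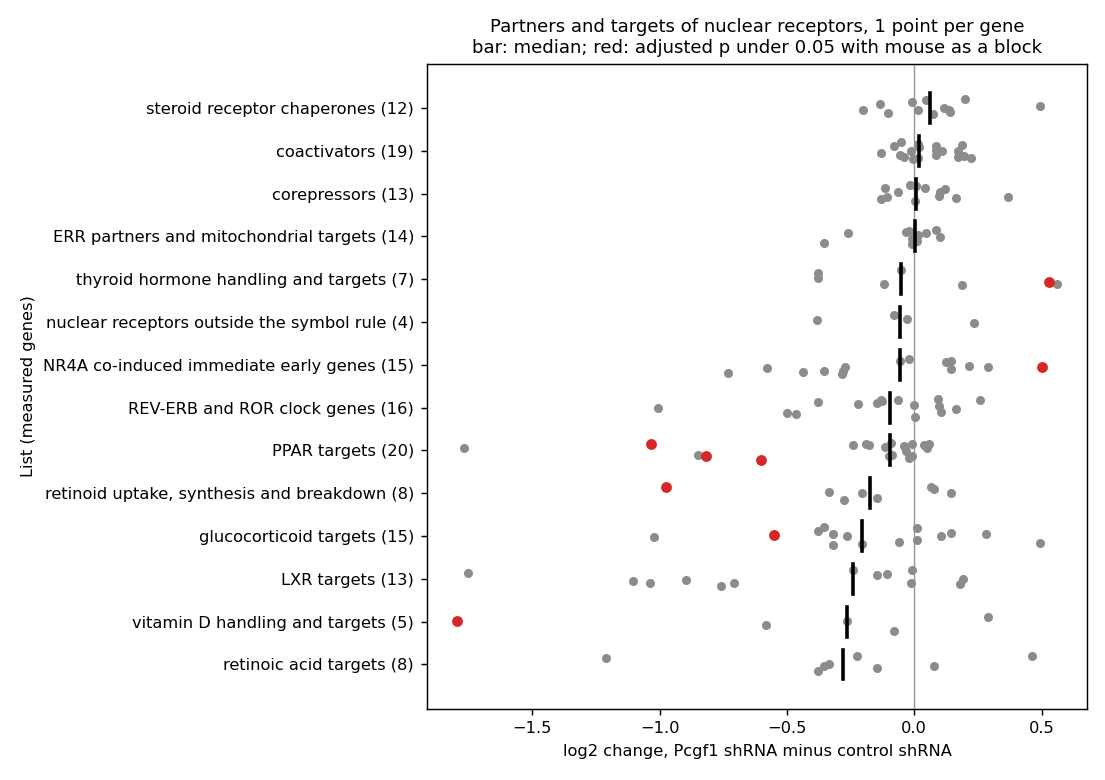
Log2 change, Pcgf1 shRNA minus control shRNA, of each measured gene (points) in the 14 lists of partners and targets, with the list median as a bar and the number of measured genes in brackets. The 8 red points passed an adjusted p of 0.05 with mouse as a block. Coactivators, corepressors and chaperones gather around 0, while single PPAR, LXR, retinoic acid, glucocorticoid, vitamin D and clock list genes reach −1 or below.

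Cell type markers differed between the groups beside these values. Sums were taken over all list members on the array, also those not measured, in multiples of the 75th percentile signal. For the 17 neutrophil maturation markers, 14 of them measured, the sum was 168 to 427 with the control shRNA and 51.2 to 142 with the Pcgf1 shRNA. Of the 17, Mmp9, Retnlg and Itgb2l were above background on 0 arrays. Without a block 4 of the 14 were called lower and 0 higher, where 0.763% of all genes were called. With it 10 were called lower and 1 higher (2.42% and 2.91% of all genes were). Of the 14 measured 12 were above background on all 8 arrays. Dendritic cell markers (7 of 7 measured lower, median −0.85) summed to 30.8 to 59.1 and 9.17 to 43.4, and erythroid markers (13 of 13 lower, median −0.74) to 153 to 344 and 67.0 to 254. In these 2 lists 0 were called without a block. With it 1 dendritic and 4 erythroid markers were called lower (2.42% of all genes were) and 0 higher. Of all genes 49.5% were below their control mean. Eosinophil markers had a median of −0.80, megakaryocyte markers of −0.22, mast cell markers of −0.17, B cell markers of −0.29, T and NK cell markers of −0.21 and stromal and endothelial markers of −0.43. Defining markers above background on 0 arrays were Pax5, Ebf1 and Ms4a1 of B cells, Cd3d, Cd3g, Cd8a, Gzma, Klrb1c and Ncr1 of T and NK cells, Col3a1, Lepr, Cdh5 and Dcn of stroma and endothelium, and Alox15 of eosinophils. The stem and progenitor list, by contrast, summed to 26.5 to 28.3 and 37.1 to 43.5, but its median was −0.05, with 5 of 12 members above and 7 below their control mean. Cd34 (0.94) and Hoxa9 (1.45) were called higher without a block, where 0.763% of all genes were called. With it 3 of the 12 were called higher and 1, Ly6a (−0.68), lower (2.91% and 2.42% of all genes were). The primary granule list had a median of 0.01. The part of these shifts in the receptor changes was not tested.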

How the data were processed

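RNA of 8 cultures, 4 with a control shRNA and 4 with a Pcgf1 shRNA, was hybridised to 1-colour Agilent arrays. The deposited scanner files hold spot intensities extracted with Agilent Feature Extraction 10.1, per the submitters' processing notes. The processed intensity, corrected for background per the file headers, was used as the main value. The deposited value table holds log2 values of the authors. Over 21548 probes and 28 array pairs, its differences followed those of the scanner files with r of at least 0.999895 and slopes of 0.999863 to 1.00025, and the median over the arrays of 100% of probes was within 0.001 of 0, so the table is log2, of the same direction and centred by probe. Its array medians, control then Pcgf1 shRNA, were 0.05 and 0.10, 0.11 and −0.05, 0.10 and −0.11, and −0.13 and −0.20 in mice 1 to 4.

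Spots of a probe were averaged, log2 intensities were shifted by the 75th percentile of each array (519 to 854), and a probe was kept if well above background on all 4 arrays of a group. This left 22747 of 41174 probes, and the brightest stood for each gene. Names came from the array's accessions through RefSeq (24375 probes matched and 16799 did not). A probe without a match kept its array identifier in place of a gene name and was tested as a gene. Of the 17302 genes kept 11744 had a name. limma 3.58.1 in R 4.3.3 gave two-sided p-values, adjusted by Benjamini-Hochberg over 17299 genes, and was tested on simulated data. The design has no block. The replicate numbers pair cultures of the same animal, as the titles give them; arrays of 1 mouse correlated in their deviations at 0.44, 0.48, 0.41 and 0.64, so the fit with mouse as a block stands beside it. Alternatives covered slide, normalization, background, filter, probe choice, array weights, the deposited table and left-out cultures. Normexp used the median spot signal, with an offset of 50, which by itself shrinks differences of dim probes.

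Members and gene lists were chosen with earlier results of these data known. Values on each array are given for members that passed either fit and the 12 measured members with the smallest p, other members by their change, and pathway lists by members that passed and the 2 with the smallest p, with each exception named as such. Promoter windows came from the RefSeq tables of GRCm38.p6 with chromosome 18 left out, so Nr3c1, which lies there, could not be matched. In all 4 receptor genes, among them Nr3c1, Nr5a1 and Thra, were not matched. Some genes of the lists are not reported here by name.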

Additional observations from a re-analysis of the deposited data

Results flagged for a closer look

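In 5 of 50 groups of 4 arrays the highest or lowest array of a measured gene chosen by the symbol rule stood apart from the other 3 by Dixon's criterion, and chance alone gives about 1 in 20 such groups. All 5 were control shRNA arrays, 3 of them from mouse 4. The control array of mouse 4 was low for Esrra (log2 signal 2.03, others 2.47 to 2.54) and for Nr0b2 (−4.34, others −3.68 to −3.60). It was high for Rxrb (2.67, others 2.59 to 2.60). The control array of mouse 1 was high for Nr2c1 (−0.715, others −1.21 to −1.13), and that of mouse 3 for Nr3c2 (−3.49, others −3.94 to −3.90). For Esrra and Nr0b2 the Pcgf1 shRNA culture of mouse 4 was also the lowest of its group.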

How the results depend on the processing

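Receptors called numbered 0 without a block and 4 with mouse as a replicate block. They were 1 with quantile normalization and 4 with array weights, and 0 under slide, normexp, either other filter, mean of probes and the deposited table. With mice or arrays left out they ranged from 0 to 3. Pathway list genes called went from 0 to 8 with the block, 1 with quantile normalization and 13 with array weights, and ranged from 0 to 3 with cultures left out. The number of all genes called, higher and lower, was 132 and became 921 with the block, 77 with normexp, 959 with array weights and 0 in limma without a filter on dim probes (2199 of 32967 genes at an unadjusted p under 0.05), and ranged from 0 to 363 with cultures left out. Without the filter more genes are adjusted over, and the SE changed too, for Pcgf1 from 0.122 to 0.135. The part of each in the lost calls was not tested. The Pcgf1 change of −1.36 kept its size without the filter but not its call (adjusted p 0.104), and ranged from −1.44 to −1.28 with cultures left out, with the call lost in 7 of those 16 fits.

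Small changes turned sign, and the cause was not tested. Nr3c1 went to 0.17 with the mean of its probes, as 1 of its probes rests on 1 bright array. Normexp gave Nr6a1 −0.088, Ppard −0.10 and Hnf4g −0.065. Quantile normalization gave Nr5a1 0.018 and Thra −0.0013, and the deposited table gave Thra −0.0011. With cultures left out, Nr1d2 ranged from −0.21 to 0.055, Nr2c1 from −0.025 to 0.15, Nr2c2 from −0.077 to 0.14, Nr3c2 from −0.16 to 0.0022, Nr4a1 from −0.15 to 0.038, Nr5a1 from −0.14 to 0.10, Nr6a1 from −0.069 to 0.14 and Thra from −0.065 to 0.073. The other genes recomputed, the measured receptors and those the naming rule took from the lists, kept their direction under each alternative listed. The 4 receptors called with the block kept their direction throughout but rest on 4 mice. Signal close to background limits dim receptors. With normexp the values of some shrank (Esr1 to 0.096, Nr0b2 to 0.024, Rarg to 0.071, Rora to −0.58) or turned sign (Ppard, Nr6a1). Those of Rara (−0.156 to −0.144) and Nr3c2 (−0.107 to −0.105) hardly moved. Those of Nr5a1 (−0.024 to −0.078) and Nr1d2 (−0.052 to −0.103) grew in size. The normexp offset of 50 by itself shrinks differences of dim probes, and the part of background in these values was not tested.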
